A study of Homo sapiens with 12 samples.

Results

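The thioredoxin system of HepG2 cells was examined through 10 genes: the thioredoxin genes TXN and TXN2, the thioredoxin reductase genes TXNRD1 and TXNRD2, the sulfiredoxin gene SRXN1, and the peroxiredoxin genes PRDX1, PRDX2, PRDX3, PRDX5 and PRDX6. Every probe of the deposited value table whose annotated symbol, current or older, is one of these names was taken, which gave 13 of the 48803 probes. These 13 probes cover 8 of the 10 genes. TXN, TXNRD1, TXNRD2, PRDX1 and PRDX3 have 2 probes each, and TXN2, PRDX6 and SRXN1 have 1 each. No probe carrying the name PRDX2 or PRDX5 was found, so these genes were not analysed here.

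HepG2 is an established human liver carcinoma line, and RNA from 12 cultures was hybridised to Illumina HumanHT-12 arrays, 6 from high glucose (25 mM) and 6 from low glucose. The labels give the low-glucose medium as 2.7 mM, whereas the methods give 0 mM for the arrays, and the files do not settle which is right. According to the methods the line was kept in 25 mM glucose medium with 10% fetal bovine serum, used at passage 8 to 10, held for 16 h in 2.7 mM glucose and then placed in the test medium for 8 h. All cultures thus shared the 16 h step, and no array was taken before the last 8 h, so higher and lower refer only to the difference between the groups. The cells are 1 tumour line without the other cell types of liver, and the methods call the replicates biological. Nothing tells which cultures were grown side by side, and p-values measure only the spread between these samples.

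Thioredoxins are small proteins that reduce disulfide bonds in other proteins and become oxidised in doing so. Thioredoxin reductases, which are selenoproteins, return them to the reduced state with electrons from NADPH: TXNRD1 acts on TXN in the cytosol and TXNRD2 on TXN2 in mitochondria. Most peroxiredoxins draw on thioredoxin to break down hydrogen peroxide. When the peroxide-reactive cysteine of a peroxiredoxin is itself overoxidised, sulfiredoxin, the product of SRXN1, can return it to use. TXNRD1 and SRXN1 are among the genes known as targets of the transcription factor NRF2, which binds antioxidant response elements. The other members were not sorted by whether they are NRF2 targets, so no statement is made about NRF2 targets among the members as a set.

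The promoters of TXNRD1 and SRXN1 are shown because these genes carried the large differences described below. The sequences are RefSeq's for GRCh38.p14, from 250 bases before an annotated transcription start to 30 bases after it, 5′ to 3′ on the strand of the gene. Capitals mark matches to the core of the antioxidant response element, TGACNNNGC, searched on both strands. The TXNRD1 windows lie on the plus strand at chr12:104215529-104215808 and chr12:104286782-104287061, and the SRXN1 window lies on the minus strand at chr20:653171-653450.
TXNRD1 start 1: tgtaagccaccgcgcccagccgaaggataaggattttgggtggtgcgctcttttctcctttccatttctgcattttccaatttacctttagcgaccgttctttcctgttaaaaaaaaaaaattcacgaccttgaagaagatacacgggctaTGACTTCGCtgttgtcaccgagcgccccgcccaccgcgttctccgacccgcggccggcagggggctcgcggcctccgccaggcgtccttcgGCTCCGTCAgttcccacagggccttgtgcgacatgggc
TXNRD1 start 2: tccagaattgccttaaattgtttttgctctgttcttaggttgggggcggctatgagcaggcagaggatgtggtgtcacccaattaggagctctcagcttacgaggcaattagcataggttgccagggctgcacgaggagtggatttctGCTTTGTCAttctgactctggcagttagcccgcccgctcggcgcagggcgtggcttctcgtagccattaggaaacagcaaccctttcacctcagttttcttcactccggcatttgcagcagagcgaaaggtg
SRXN1: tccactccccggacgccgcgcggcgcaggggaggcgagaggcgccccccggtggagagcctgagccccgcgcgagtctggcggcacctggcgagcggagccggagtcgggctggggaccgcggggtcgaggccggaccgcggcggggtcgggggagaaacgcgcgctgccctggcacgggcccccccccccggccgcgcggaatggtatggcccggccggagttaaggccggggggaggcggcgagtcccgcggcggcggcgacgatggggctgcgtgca
RefSeq windows were matched for 7 of the 10 genes, with 11 windows of 300 bases in all, running to 50 bases after the start. TXN2, PRDX1 and PRDX6 are named only. The core was found in both TXNRD1 windows and in no window of another member, against 13.3% of all 35116 promoter windows. At the first TXNRD1 start, TGACTTCGC lies on the sense strand from position -99 to -91 relative to the start, and GCTCCGTCA, the core on the antisense strand, covers positions -8 to 1. At the second start, GCTTTGTCA, again on the antisense strand, lies from -102 to -94. The AP-1 motif TGANTCA, in 7.71% of all windows, was found in no member window. The E-box CACGTG, in 7.26% of all windows, was found in 1 PRDX3 window, from -157 to -152. The motifs were chosen with the expression results known, and the letters of a window do not say whether a factor binds there or, where no match was found, that it binds nowhere near the gene.

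The values are linear probe intensities, normalised by the authors so that the sorted values of any pair of arrays differ by at most 0.825, as quantile normalisation leaves them. The lowest intensity in the table is 47.2, and the sources do not say whether background was subtracted. If background remains in the values, a dim probe shows a smaller fold than its RNA would. The groups were compared on the log2 scale with limma, and p-values were adjusted by Benjamini-Hochberg over all 48803 probes. A probe with an adjusted p under 0.05 is termed called, higher or lower as it reads in high glucose. Across probes, the correlation between arrays was 0.992 to 0.995 inside a group and 0.985 to 0.988 between the groups. Liver markers were bright, with 7 of 8 hepatocyte markers measured at mean intensities between 2682 and 27903. Of 9 markers of leukocytes, fibroblasts and endothelium, 6 had means under 100 in both groups. The exceptions were DCN, PECAM1 and CD14. CD14 was called higher in high glucose (472 against 294), as was the dim endothelial marker VWF (72.6 against 62.9), and among the hepatocyte markers FGB was called higher (log2 change 0.53) and APOB lower (-0.22). The part of these markers in the results below was not tested.

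Within the thioredoxin system the cytosolic reductase gene and the sulfiredoxin gene fell in high glucose by close to 3-fold, while probes for 3 peroxiredoxin genes rose by 11.4% to 12.3%. Of the 13 member probes, 3 were called lower (both TXNRD1 probes and SRXN1), 4 were called higher (1 of 2 PRDX1 probes, PRDX6 and both PRDX3 probes) and 6 were not called. Over all probes, 7.43% were called lower and 8.77% higher. Bright probes were called more often: among the 8031 probes with a mean intensity over 500, 25.0% were called lower and 29.5% higher, and 11 of the member probes belong to this class. The number of member probes called was therefore near the background of bright probes. Differences of the size seen for TXNRD1 and SRXN1 were rarer: a fall of more than 1 on the log2 scale together with a call was seen for 0.477% of all probes (233 probes), 3 of them these. The groups did not overlap for the same 3 probes, against 10.5% of all probes. Neither this share nor the 0.477% was worked out for bright probes alone, to which most member probes belong. The median log2 change of the 13 probes was 0.03, against 0.00 (0.000267) over all probes.

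**Figure D1:**
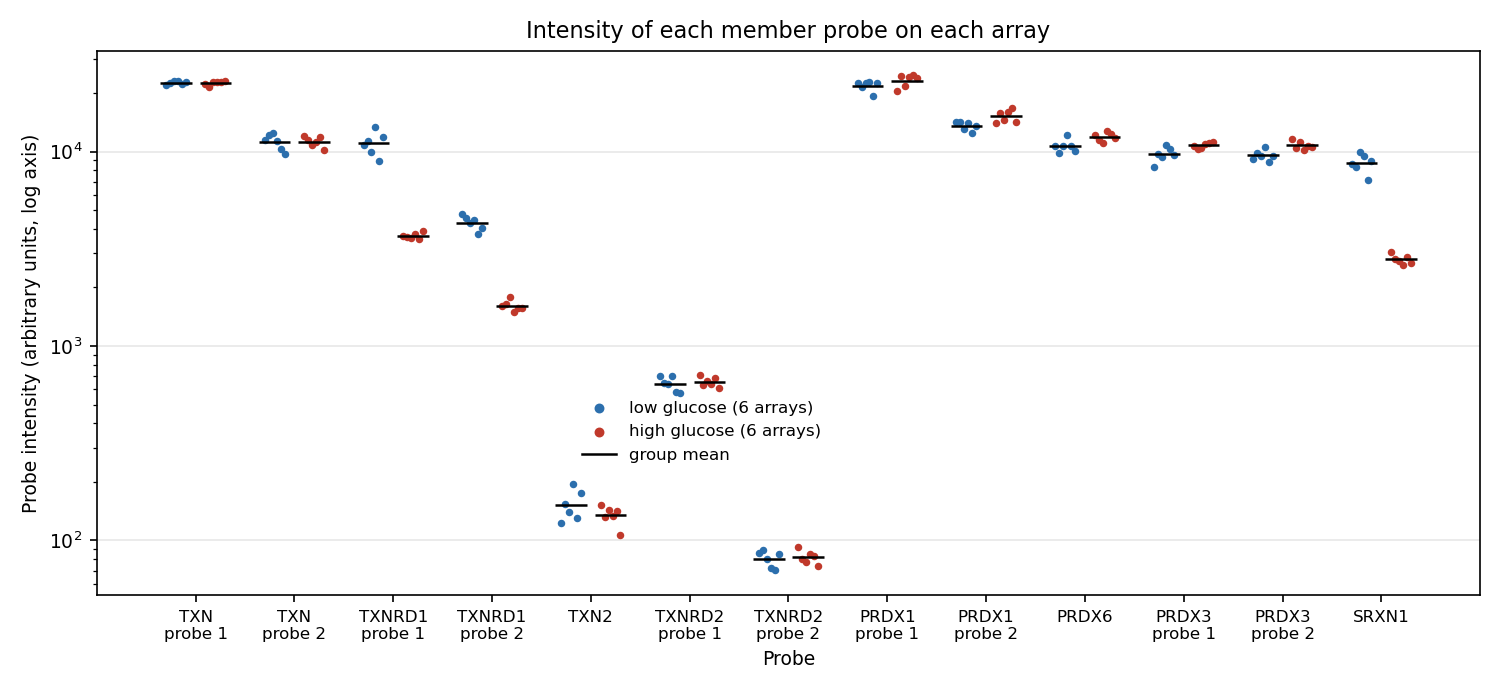
Intensity of each of the 13 member probes on each of the 12 arrays (log axis), high glucose and low glucose drawn apart; each point is 1 array and each bar is the mean of the 6 arrays of a group. The groups are clear of each other for both TXNRD1 probes and SRXN1 and overlap for the other 10 probes; the height of one probe is not comparable with that of another.

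TXN, the gene of cytosolic thioredoxin, showed no detectable difference. Its first probe (ILMN_2038776) read 21539 at the lowest, 22813 at the median and 23053 at the highest of the high-glucose arrays, and 22049.5, 22719 and 23110.3 in low glucose. The high-glucose range enclosed nearly all of the low-glucose range. The log2 change, high minus low glucose, was -0.01 with a 95% confidence interval of -0.08 to 0.07 (limma, adjusted p = 0.959). The second probe (ILMN_1680314) read 10233, 11321 and 12000.0 in high glucose and 9708, 11414 and 12417 in low glucose (lowest, median and highest). Here the low-glucose arrays spread to both sides of the high-glucose arrays. Its log2 change was 0.01 with an interval of -0.11 to 0.12 (adjusted p = 0.972), which in percent runs from -7.35 to 8.91.

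TXNRD1, whose product returns cytosolic thioredoxin to its reduced form, was lower in high glucose by both probes, which are annotated to different transcript records of the gene. The first probe (ILMN_1717056) read 3554 at the lowest, 3644 at the median and 3925 at the highest of the high-glucose arrays, and 8991, 11049.9 and 13407 in low glucose. Every low-glucose array thus read more than 2 times the value of every high-glucose array. The means were 3688 ± 133 and 11042 ± 1535 (SD, n = 6 each). The log2 change was -1.57 (standard error 0.07, 95% interval -1.71 to -1.43, limma adjusted p = 2.2e-15), a level 2.97-fold lower in high glucose (95% interval 2.70 to 3.27). The low-glucose arrays were the more variable, with a coefficient of variation of 13.9% against 3.60%.

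The second TXNRD1 probe (ILMN_2324421) gave the same picture at lower intensity. It read 1489, 1584 and 1780.0 in high glucose and 3756, 4356 and 4781 in low glucose (lowest, median and highest). Again no arrays of the groups overlapped, and the gap between them was wider than the range within either group. The means were 1609 ± 99.2 and 4303 ± 368 (SD, n = 6 each), with a log2 change of -1.42 (standard error 0.06, 95% interval -1.55 to -1.29, limma adjusted p = 3.8e-15) and a level 2.67-fold lower (2.44 to 2.92).

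The mitochondrial pair did not pass the test. TXN2, the gene of mitochondrial thioredoxin, was dim (ILMN_1654457). It read 106, 138 and 152 in high glucose and 123, 148 and 194 in low glucose (lowest, median and highest). From 123 to 152 the groups overlapped. The log2 change of TXN2 was -0.17 with a wide interval of -0.38 to 0.04 (limma adjusted p = 0.350). TXNRD2, the mitochondrial reductase gene, has one probe of moderate intensity (ILMN_1657893) that read 606, 649.9 and 705 in high glucose and 573, 642 and 704 in low glucose. The low-glucose range covered nearly the whole high-glucose range, and the log2 change was 0.03 (-0.11 to 0.18, adjusted p = 0.866). Its other probe (ILMN_1669083) stayed under 100 on all 12 arrays, with means of 82.3 ± 6.55 and 80.5 ± 7.74 (SD, n = 6 each), and can show little. The intervals of the TXNRD1 probes (-1.71 to -1.43 and -1.55 to -1.29) and of the brighter TXNRD2 probe (-0.11 to 0.18) are given side by side, and the difference between the reductases was not itself tested.

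SRXN1 had the largest difference of the member probes. Its probe (ILMN_1804822) read 2617 at the lowest, 2766 at the median and 3041 at the highest of the high-glucose arrays, and 7114, 8739.6 and 9896 in low glucose. As for TXNRD1, every low-glucose array read more than 2 times the value of every high-glucose array. The means were 2787 ± 155 and 8733 ± 979 (SD, n = 6 each). The log2 change was -1.64 (standard error 0.07, 95% interval -1.78 to -1.51, limma adjusted p = 3.5e-16), a level 3.12-fold lower in high glucose (2.84 to 3.42). Ordered from the most negative log2 change among all 48803 probes, SRXN1 stood 57th and the TXNRD1 probes 66th and 97th.

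**Figure D2:**
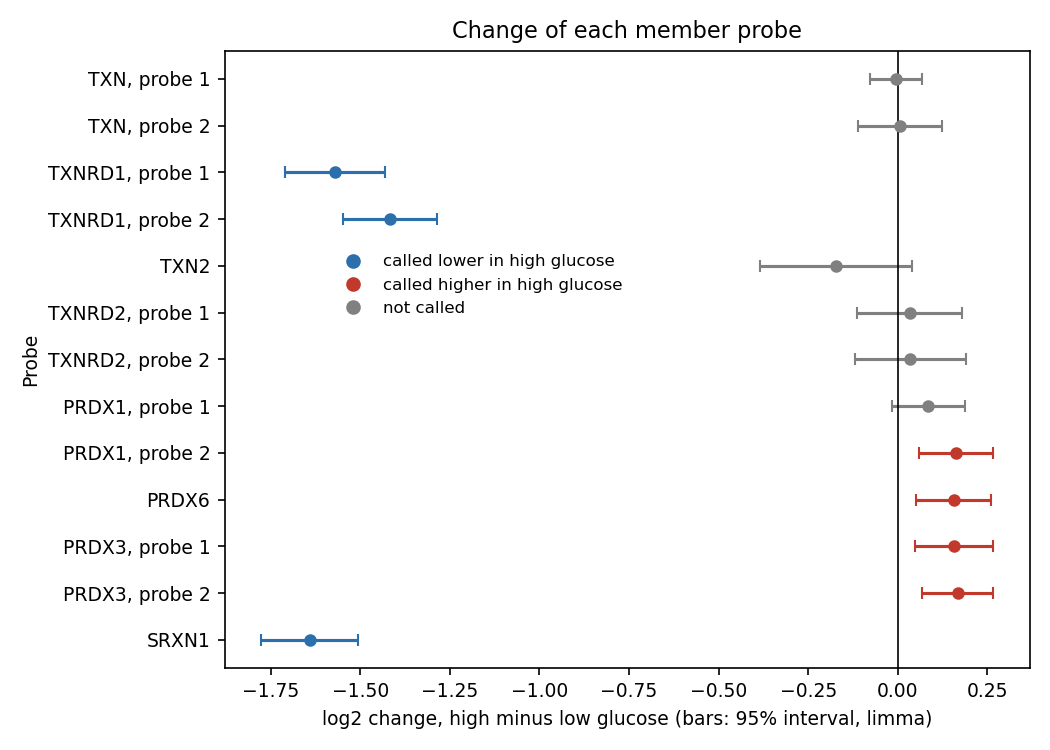
Log2 change, high minus low glucose, of each of the 13 member probes with its 95% confidence interval from limma; colour marks probes called higher, called lower or not called at an adjusted p under 0.05, and the vertical line is at 0. SRXN1 (-1.64) and the TXNRD1 probes (-1.57 and -1.42) lie apart from the other 10 probes, whose changes lie between -0.17 and 0.17.

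The peroxiredoxin differences were small and positive. PRDX1, the gene of an abundant cytosolic peroxiredoxin, has 2 probes. The first (ILMN_2366388) read 20501, 23993 and 24606 in high glucose and 19237, 22463 and 22713 in low glucose (lowest, median and highest). The groups overlapped, and the log2 change of 0.09 (-0.02 to 0.19) did not pass the test (adjusted p = 0.325). The second (ILMN_2366391) read 13973, 15109 and 16685 in high glucose and 12404, 13718 and 14232 in low glucose, with only low-glucose replicates 1 and 2 inside the high-glucose range. Its means were 15183 ± 1119 and 13550.4 ± 738 (SD, n = 6 each), and its log2 change of 0.16 (0.06 to 0.27) was called (adjusted p = 0.0221). The intervals of the probes overlap, so the call on one of them does not set them apart.

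PRDX6, the gene of a peroxiredoxin that uses glutathione rather than thioredoxin, has 1 probe (ILMN_1803180). It read 11001, 11937 and 12683 in high glucose and 9807, 10640.3 and 12206 in low glucose (lowest, median and highest). Low-glucose replicate 4, at the top of its group, was the only low-glucose array inside the high-glucose range. The means were 11884 ± 606 and 10682 ± 834 (SD, n = 6 each), with a log2 change of 0.16 (0.05 to 0.26, adjusted p = 0.0346).

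PRDX3, the gene of a mitochondrial peroxiredoxin, was called higher by both probes. The first (ILMN_2395974) read 10309, 10822 and 11129 in high glucose and 8286, 9641 and 10768 in low glucose (lowest, median and highest), with low-glucose replicates 4 and 5 inside the high-glucose range. Its means were 10750.3 ± 342 and 9671 ± 854 (SD, n = 6 each), and its log2 change was 0.16 (0.05 to 0.27, adjusted p = 0.0403). The second (ILMN_2395969) read 10233, 10592 and 11559 against 8883, 9528 and 10613, with only low-glucose replicate 4 inside the high-glucose range. Its means were 10745 ± 506 and 9578 ± 598 (SD, n = 6 each), and its log2 change of 0.17 (0.07 to 0.27, adjusted p = 0.0146) had the lowest adjusted p of the 5 member peroxiredoxin probes. All 5 of these probes had a positive change, though probes of one gene share its RNA and are not independent.

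The calls on the member peroxiredoxin probes lay near the threshold, and 3 of the 4 were lost on leaving out single arrays, whereas the calls on TXNRD1 and SRXN1 held in every alternative tried. PRDX1 (second probe) was no longer called without high-glucose replicate 2, 4 or 5 or low-glucose replicate 3 or 5 (adjusted p = 0.0531 to 0.0734 over these fits). PRDX6 was not called without high-glucose replicate 1, 4, 5 or 6 or low-glucose replicate 1, 2, 3, 5 or 6 (just over 0.05 to 0.101). The first PRDX3 probe was not called without high-glucose replicate 1, 4, 5 or 6 or low-glucose replicate 1, 2, 3 or 6 (0.0593 to 0.131), and the second kept its call without any one array (0.00343 to 0.0470). With 1 array left out, the log2 changes of these 4 probes stayed between 0.113 and 0.197. When the prior variance did not follow the mean intensity, the adjusted p of these 4 probes was 0.103, 0.122, 0.127 and 0.0714, so that none was called, although each had an unadjusted p under 0.05 and the same log2 change. A Cyber-T style test called PRDX1 and the second PRDX3 probe but not PRDX6 (0.0583) or the first PRDX3 probe (0.0580).

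**Figure D3:**
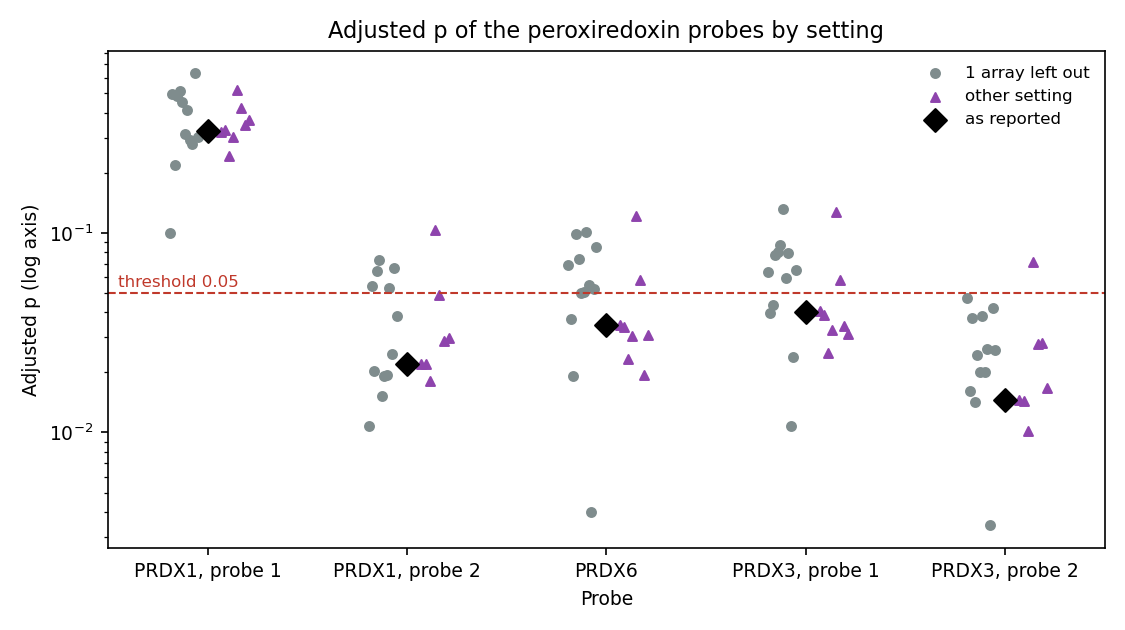
Adjusted p (log axis) of the 5 peroxiredoxin probes as reported (diamonds), with 1 array left out (circles) and under the other settings (triangles, without the stricter threshold), with the threshold of 0.05 as a dashed line. Points of the second PRDX1 probe, of PRDX6 and of the first PRDX3 probe lie on both sides of the line. The second PRDX3 probe is above it only without the variance trend (0.0714).

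The arrays were not alike within either group. High-glucose replicate 1 was the highest of its group for 6 of the 13 probes, and high-glucose replicate 6 was the lowest for 4. Low-glucose replicate 5 was the lowest of its group for 7 of the 13 probes, among them 5 of the 7 called, and low-glucose replicate 4 was the highest for 7. Without low-glucose replicate 5 the log2 changes of the TXNRD1 probes were -1.63 and -1.46 and that of SRXN1 was -1.70. Without low-glucose replicate 4 they were -1.51, -1.41 and -1.615. Leaving out either array moved each of these changes by less than its standard error.

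Around these genes, lists of related genes were described by each gene's brightest probe. Of the 18852 named genes, 12.2% were called lower and 15.4% higher this way, and their median log2 change was 0.01. Probes with a mean intensity over 500 were called more often (25.0% lower and 29.5% higher), and many listed genes are bright. No background matched to the intensities of the lists was worked out. Among 18 genes of thioredoxin-like proteins and disulfide oxidoreductases, 4 were called higher and 1 lower, with a median of 0.08. TXNL4A, which encodes a protein of the spliceosome, rose by 0.42 on the log2 scale, and TMX3 and TMX2, membrane proteins of the endoplasmic reticulum, rose by 0.30 and 0.29. TXNL1, the gene of a thioredoxin-like protein bound to the proteasome, fell by 0.39. The call on TMX3 was lost without high-glucose replicate 1 or low-glucose replicate 1 or 2 (adjusted p = 0.0584, 0.0690 and 0.0526).

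Among 12 other antioxidant enzymes measured of 13 listed, 5 were called higher and 1 lower, with a median of 0.16. PRDX4, the peroxiredoxin gene of the endoplasmic reticulum, read 13110.2 ± 605 in high glucose and 10610.0 ± 1062 in low glucose (SD, n = 6 each), a log2 change of 0.31 (adjusted p = 0.00017) with no overlap between the groups. The glutathione peroxidase genes GPX3, of a secreted enzyme, and GPX7, of the endoplasmic reticulum, rose by 0.25 and 0.24. GSR, whose product returns glutathione to its reduced form as thioredoxin reductase does for thioredoxin, was the gene called lower (2911 ± 131 against 3906 ± 327, log2 change -0.42, adjusted p = 4.4e-06), by both of its probes. Of the 4 glutaredoxin genes, GLRX2 fell by 0.63 by 1 of its 3 probes, and GLRX5, which serves iron-sulfur cluster assembly in mitochondria, rose by 0.15. The call on GLRX5 was lost without high-glucose replicate 2, 4 or 6 or low-glucose replicate 3 or 5, with an adjusted p of up to 0.130, and also without the variance trend (0.158), by the Cyber-T style test (0.0823) and at a threshold of 0.01.

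A list of 13 partners and clients of thioredoxin was drawn up, with the sestrin genes counted in. Of these 13 genes, 5 were called higher and 2 lower, with a median of 0.07. TXNIP, whose product binds reduced thioredoxin and blocks its activity, read 788 ± 46.9 in high glucose and 105 ± 14.8 in low glucose (SD, n = 6 each), a log2 change of 2.92 (95% interval 2.74 to 3.10, limma adjusted p = 7.9e-19). The low-glucose level was close to the array median of 90.8, so if background remains in the values the log2 change understates that of the RNA. TXNIP was thus higher, TXNRD1 was lower and TXN showed no detectable difference in the same cultures. RRM2B, a subunit gene of ribonucleotide reductase, an enzyme that thioredoxin can recharge, rose by 0.56. Among the sestrin genes, known as stress-induced regulators of growth signalling, SESN1 and SESN2 went opposite ways. SESN1 rose by 0.82, and SESN2 fell from 419.9 ± 88.8 to 151 ± 11.2 (SD, n = 6 each, log2 change -1.45, limma adjusted p = 1.3e-10). SESN3 was not called, with a log2 change of 0.11 (limma adjusted p = 0.408).

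Thioredoxin reductases need selenocysteine, which is built on its own tRNA and inserted at recoded stop codons. Of 8 genes of selenoprotein synthesis, 2 were called higher and 2 lower, with a median of -0.04. SEPHS2, the gene of selenophosphate synthetase, rose by 0.29, and its relative SEPHS1 rose by 0.38. PSTK, the gene of the kinase that prepares the tRNA for selenium, had a log2 change of -0.60, and SECISBP2L, a relative of the gene of the protein that binds the insertion element, one of -0.37.

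Other target genes of NRF2 were listed as well, without any member gene. Of 18 measured of 21 listed, 11 were called lower (61.1%), 0 higher and 7 were not called, with a median of -0.24, by limma. At an unadjusted p under 0.05, 12 were lower and 0 higher, and the Cyber-T style test called 10 lower and 0 higher. HMOX1, the heme oxygenase gene, read 1524 ± 93.5 in high glucose and 10056 ± 1214 in low glucose (SD, n = 6 each), a log2 change of -2.71 (adjusted p = 7.1e-20). GCLM and GCLC, the subunit genes of the enzyme that starts glutathione synthesis, had log2 changes of -2.06 and -1.67, and the autophagy receptor gene SQSTM1 one of -1.23. NQO1, also known as an NRF2 target, was not called, with a log2 change of 0.08; it was named after its value was seen. Several of these genes were known to be lower from earlier results of these data when the list was written, so their count is not independent evidence of a direction.

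Of 5 genes for NRF2 and its partners measured of 6 listed, 4 were called lower by limma and 0 higher, also by the Cyber-T style test and at an unadjusted p under 0.05. NFE2L2, the gene of NRF2 itself, read 4427 ± 469.9 in high glucose and 7490.4 ± 412 in low glucose (SD, n = 6 each), a log2 change of -0.76 (adjusted p = 4.5e-10). The genes of its small MAF partners, MAFF and MAFG, had log2 changes of -1.82 and -1.06, and KEAP1, whose product holds NRF2 back, one of -0.65. Each of the MAFF, MAFG and KEAP1 calls was made by 2 of the 3 probes of the gene. Of 8 genes measured of 9 listed under NADPH supply, 2 were called lower and 0 higher by limma, with a median of -0.03. At an unadjusted p under 0.05, 1 was higher and 2 lower, and the Cyber-T style test called 2 lower and 0 higher. PGD, ME1, IDH1, IDH2, NNT and MTHFD1 were not called, and the supply of NADPH itself was not measured. The genes called were MTHFD2, a mitochondrial folate enzyme gene (1959 ± 137 against 6766 ± 183, log2 change -1.79, adjusted p = 1.5e-18), and ALDH1L1, of the cytosolic folate pathway (-0.58). Except for GPX3, GLRX5, TMX3 and SEPHS2, every gene named in these lists by its call kept that call in all alternatives tried; GPX3 and SEPHS2 lost it only at a threshold of 0.01.

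**Figure D4:**
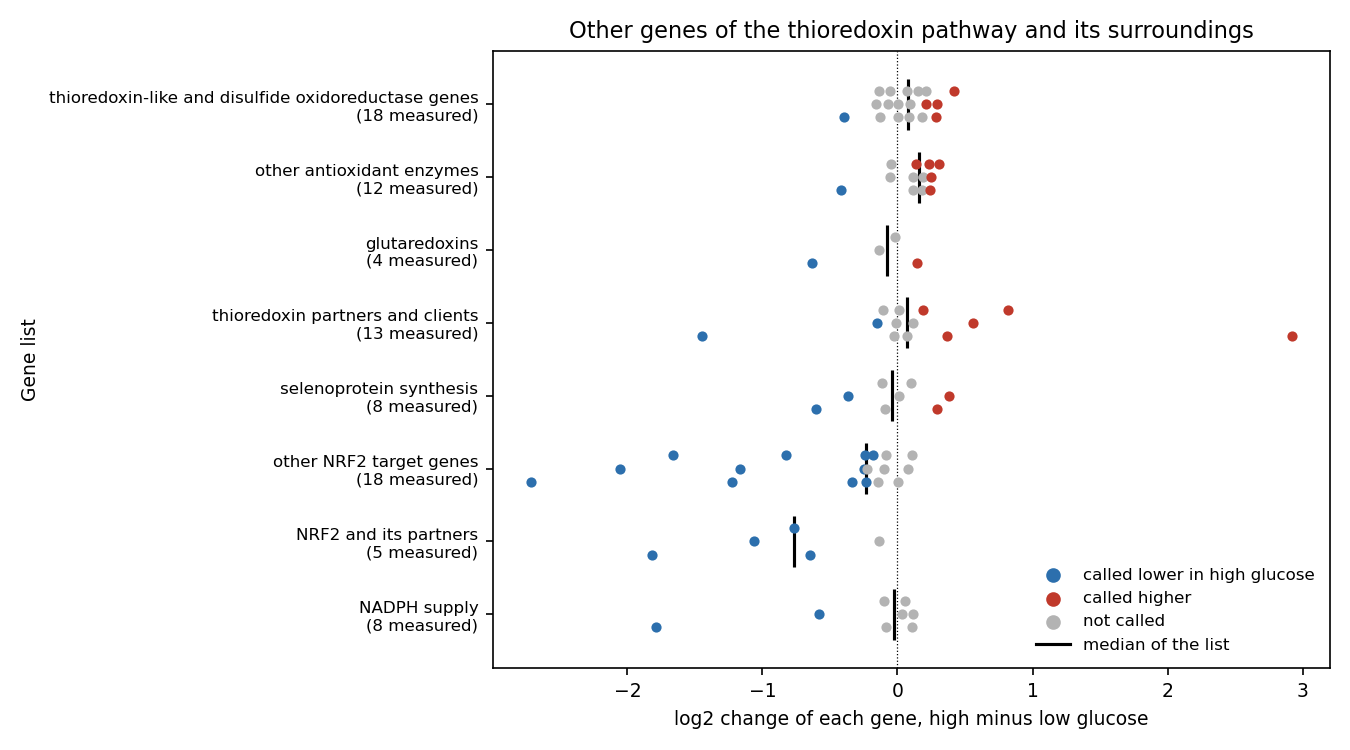
Log2 change, high minus low glucose, of each measured gene of the 8 lists by its brightest probe; each point is a gene, colour marks the call at an adjusted p under 0.05 by limma, and the short bar is the median of the list. All 8 lists hold genes below 0, and the lists of NRF2 targets (-0.24) and of NRF2 and its partners (-0.76) have the lowest medians. TXNIP (2.92) stands alone at the top.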

How the data were processed

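The deposited values are linear probe intensities of 12 HumanHT-12 arrays (6 per group), which the authors normalised with limma, by a method the sources do not name (the sorted values of the arrays are nearly identical, as after quantile normalisation). The submitters' processing notes name GenomeStudio 2010.1. Settings, background correction and a probe filter are not given in the sources used here. A table of signals before normalisation, with detection p-values, was not used because the names of its 24 per-sample columns match no label. The platform annotation gave the gene names, current or older (28098 with 1 symbol, 13 with several, 20692 with none).

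The main test was limma 3.58.1 (R 4.3.3) on log2 intensities, lmFit followed by eBayes with its variance trend and without a block, adjusted by Benjamini-Hochberg over 48803 probes at a threshold of 0.05. The script was tested on simulated data with known changes. The number of arrays limits the precision (median SD within groups 0.13 on the log2 scale). A gene outside the member set was taken from its brightest probe. All member probes are named, with TXNIP and up to 4 called genes of largest change from each list. The members and lists were chosen with earlier results of these data known. Alternatives were a pseudocount of 16, normexp background correction, a filter on dim probes (over 100 on at least 6 arrays), the brightest probe per gene, no variance trend, a Cyber-T style test (prior weight 10), array weights, a block on the replicate number, a threshold of 0.01 and leaving out each array; those for the lists were added after the data were seen. Matplotlib 3.10.9 (Python 3.11.15) drew the plots.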

Additional observations from a re-analysis of the deposited data

Results flagged for a closer look

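In 2 of the 26 groups of 6 arrays tested (13 probes, each group apart), 1 array lay far from the rest by Dixon's ratio, the gap to the nearest array over the range of the group, both on the log2 scale, above the 95% critical value for 6 arrays. Chance flags about 1 in 20 groups. TXN2 in high-glucose replicate 6 was the lowest of its group at 106.1, with the nearest array at 132.7 and the farthest at 151.6 (ratio 0.626 on the log2 scale, but 0.584 on linear intensities, which is under the critical value). The first PRDX1 probe in low-glucose replicate 5 was the lowest of its group at 19237, with the highest array at 22713 (ratio 0.665, and 0.647 on linear intensities). Neither probe was called.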

How the results depend on the processing

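TXNRD1 and SRXN1 kept direction and call under every alternative tried, with log2 changes from -1.63 to -1.51 and -1.46 to -1.39 for the TXNRD1 probes and -1.70 to -1.60 for SRXN1. The number of member probes called was 7 (4 higher, 3 lower). It was 4 with the brightest probe per gene, where only 8 probes were tested, and 3 (0 higher, 3 lower; 4 higher at an unadjusted p under 0.05) both without the variance trend and at an adjusted p under 0.01. Leaving out each array gave 4 to 7, with 4 without high-glucose replicate 4, high-glucose replicate 5 or low-glucose replicate 3. The cause was not tested. Changes near 0 that were never called changed sign: TXN (first probe) ranged from -0.013 to 0.007 and TXN (second probe) from -0.034 to 0.037 on leaving out arrays, and was -0.001 with array weights; the dim TXNRD2 probe ranged from -0.003 to 0.067 on leaving out arrays. Over all probes 7904 were called. Same-numbered arrays of the groups did not deviate together (correlations from -0.036 to 0.013, 2 of 6 arrays best with their own number), and with the replicate number as a block the member count was again 7 (4 higher, 3 lower). Dim probes, TXN2 and the second TXNRD2 probe, limit what can be seen, and without detection calls none could be called absent.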
